A study of Mus musculus with 36 samples.

Results

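Interferon-stimulated genes are the genes that a cell switches on when type I interferon binds its receptor. Here 43 of them, out of 54842 genes in the deposited count table, were followed in mouse embryonic fibroblasts (MEF) while transcription of the major satellite repeats (MSR), the tandem repeats of mouse pericentric heterochromatin, was forced up. They were taken by symbol from a list of well-known members of this response, and all 43 symbols were found in the table. By role they fall into 10 groups, namely transcription factors, secreted proteins, the ISG15 conjugation system, the IFIT family, the OAS family, the Mx GTPases, the GBP and IRG GTPases, the PARP and DTX proteins, antigen processing, and other antiviral effectors.

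As background, interferon binding activates the kinases JAK1 and TYK2, which phosphorylate STAT2 among other proteins. STAT2 and IRF9 are parts of a complex, ISGF3, that binds the interferon-stimulated response element (ISRE) in the promoters of its targets. The products block virus entry, translation and replication, and some of them, such as IRF7, feed back to raise interferon production. Fibroblasts make and answer interferon beta, and sensors of cytoplasmic double-stranded RNA or DNA can start the same programme without a virus.

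Both lines carried, on 1 PiggyBac plasmid, a doxycycline-inducible dCas9 protein and a guide RNA against the MSR that is made constitutively. MSR-dCas9-Control cells expressed dCas9 alone, and MSR-dCas9-Activator cells expressed dCas9 fused to the VPR activation domains. Control cells received 10 ng/ml doxycycline for 24 h and Activator cells received 10 ng/ml for 6 h, after which cells of both lines were kept in fresh medium without the drug. Each line was sampled uninduced, at the end of induction, and 3, 6, 12 and 24 h later, with 3 replicates at each of the 6 time points, which makes 12 groups and 36 libraries of total RNA. The lines were selected mixed cultures and not single clones. They differed in the length of the doxycycline treatment and in total culture time as well as in the effector, so these cannot be told apart. Cells carrying the Repressor effector were not analysed here.

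The libraries held 27376846 to 57371803 counts in genes (median 42865961). MSR transcripts checked the labels: the normalised count of GSAT_MM, the MSR repeat family, lay between 956.6 and 1991 in the 18 Control libraries and reached 1996000 in the Activator line. In uninduced Activator replicates 1, 2 and 3 it was 4194, 2199 and 3888, already above every Control library. Fibroblast genes such as Col1a1 and Vim were high in every library, while Thy1 was at 0 in 10 libraries and never above 6 counts. At 24 h 4 of 9 tested fibroblast markers were called lower (7.3% of all genes were) and 1 higher (27.9%) in the Activator line. The Control sums of these markers were 1001000 to 1099000. Of the defining markers of other cell types, Adgre1 (macrophage) was at 0 in 29 libraries, Cd3e (T cell) in 28 and Epcam (epithelium) in 25. Others were never at 0, among them Csf1r (217 to 824 raw counts), Cd14 and Lyz2 of the macrophage list and Cdh1, Krt8 and Krt18 of the epithelial list. The summed normalised counts of these lists reached higher values in the Activator line, from 376.5 to 1161 against 366.5 to 530.7 for the 8 macrophage markers, from 10.84 to 200.1 against 7.137 to 18.94 for the 6 lymphocyte markers, from 68.86 to 1857 against 24.92 to 80.85 for the 4 endothelial markers and from 39.42 to 149.4 against 19.67 to 52.82 for the 4 epithelial markers. At 24 h 5 of 7 tested macrophage markers, 3 of 3 lymphocyte markers and 4 of 4 endothelial markers were called higher in the Activator line. So were 1 of 3 tested epithelial markers, 2 of 3 tested markers of pluripotent stem cells and 27.9% of all genes. The part of these markers in the results below was not tested. In RNA from whole cultures, fewer cells and less RNA per cell cannot be told apart.

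Activator replicate 2 stood apart from replicates 1 and 3 in these genes. Of the 41 members that could be tested, 40 were highest in replicate 2 at 6 h, 41 at 12 h and 38 at 24 h, whereas over all tested genes replicate 2 was the highest Activator library for 45.9%, 42.3% and 39% at those times. At 24 h the order replicate 2, then 3, then 1 held for 35 of the 41. The same library had the lowest MSR level of its group at 24 h, with a normalised GSAT_MM count of 455200 against 485500 in replicate 1 and 1497000 in replicate 3. Its summed fibroblast marker count at 24 h was 848800 against 461500 and 489900 in replicates 1 and 3. At 6 and 12 h its GSAT_MM count lay between those of the other two, at 786400 against 266800 and 1475000 and at 791300 against 337900 and 1996000. The main counts and the values at 24 h are therefore also given without replicate 2, which was then left out in all groups of both lines, leaving 24 libraries.

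**Figure D1:**
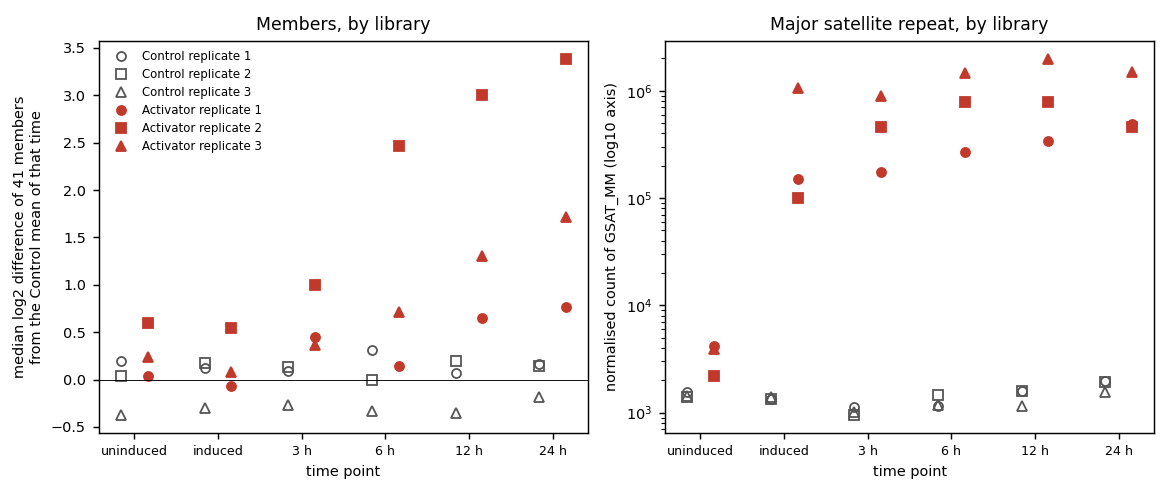
Left, median over the 41 tested members of the log2 difference of each library from the Control libraries of its time point, itself left out, and right, the normalised GSAT_MM count on a log axis, by time point. Filled marks are Activator and open marks Control libraries, and the shape gives the replicate. At 24 h the 3 Activator libraries had member medians of 0.765, 3.387 and 1.713, with replicate 2 highest, while its GSAT_MM count was the lowest of the 3.

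The ISRE is the sequence the pathway acts through, so it was looked for in the promoters. RefSeq promoters of GRCm38.p6, taken as 250 bases before and 50 bases after a transcript's start, were found for 33 of the 43 genes. The motif searched was GAAANNGAAA on either strand, where N is any base and the other strand reads TTTCNNTTTC. It occurred in 18 of the 33 genes (54.5%), against 3.99% of all 27025 genes with a promoter and 3.44% of 32851 promoters. The motif TTCNNNGAA, the core of the GAS element bound by STAT dimers, which reads the same on both strands, occurred in 6 of the 33 (18.2%), against 9.55% of all genes. Below, stretches of 60 bases from upstream of the start are given 5′ to 3′ on the gene's strand for 9 genes with a match. They are examples, called higher at 24 h except for Stat2 and Irgm1, which were not called there. Other members with a match and large differences at 24 h, such as Rsad2 and Oas3, are not shown. Capitals mark the matches to the ISRE motif that lie wholly inside the stretch.
Isg15 (chr4:156200850-156200909, minus strand): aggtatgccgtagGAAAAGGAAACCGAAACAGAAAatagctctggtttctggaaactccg
Ifit1 (chr19:34640779-34640838, plus strand): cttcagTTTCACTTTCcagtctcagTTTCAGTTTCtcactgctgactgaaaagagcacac
Ifit3 (chr19:34583382-34583441, plus strand): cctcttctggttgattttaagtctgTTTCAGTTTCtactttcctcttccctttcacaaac
Ifit3b (chr19:34607778-34607837, plus strand): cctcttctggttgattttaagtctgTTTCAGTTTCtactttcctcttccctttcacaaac
Oas1a (chr5:120907526-120907585, minus strand): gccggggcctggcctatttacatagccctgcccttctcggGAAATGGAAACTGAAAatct
Oas1g (chr5:120887614-120887673, minus strand): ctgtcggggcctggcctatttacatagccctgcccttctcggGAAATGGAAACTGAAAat
Ddx60 (chr8:61928027-61928086, plus strand): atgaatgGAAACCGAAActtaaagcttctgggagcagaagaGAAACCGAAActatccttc
Stat2 (chr10:128270251-128270310, plus strand): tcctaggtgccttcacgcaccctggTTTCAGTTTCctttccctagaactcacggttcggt
Irgm1 (chr11:48871421-48871480, minus strand): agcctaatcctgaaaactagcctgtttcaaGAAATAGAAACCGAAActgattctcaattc

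The stretches of Ifit3 and Ifit3b were identical over all 60 bases, and those of Oas1a and Oas1g shared an unbroken run of 56 bases. Isg15 held overlapping matches in tandem, and Ifit1 and Ddx60 each held a pair of separate matches. Stat2 and Irgm1 held the motif as well. A match is a description of these letters and not evidence that a factor binds there.

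The members lie on 14 chromosomes in GRCm38, and several are neighbours. On chromosome 5 lie 7 of them, the 6 OAS family genes and Cxcl10, and on chromosome 19 the 3 IFIT genes. Chromosome 3 holds Gbp2, Gbp3, Gbp7 and Ifi44, and chromosome 17 holds Psmb8, Psmb9 and Tap1. The annotation lists 42 as protein coding and Mx2 as a polymorphic pseudogene. Some of these genes share sequence, which limits how well their counts can be kept apart: of the 100-base stretches in Ifit3 exons, 31.7% also occur in Ifit3b, and 40.9% of those in Oas1a also occur in Oas1g. Dtx3l and Parp9 overlap on opposite strands over 458 exon bases, Psmb9 and Tap1 over 212, and Cxcl10 and Art3 over 133. Whether the counting used strand is not given in the sources used here, so the split of reads between those partners is uncertain.

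Resting fibroblasts already made some of these RNAs. In uninduced Control cells Irgm1, a GTPase that acts on membranes and autophagy, had a mean of 378.6 normalised counts per kilobase of exon, followed by Ifi27 at 240.3, Ifi35 at 231.3, Samd9l at 215.2, Stat2 at 165.4 and Lgals3bp at 131.9. At the other end 22 of the 43 were under 10 per kilobase and 11 under 1, and Mx1, Oas1g and Psmb8 were at 0 in all 3 libraries. Normalised counts from here on are counts scaled to a library of 42252949 and are not divided by length.

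Few differences in these genes were called early, and many were called later in the day. A gene was called when its Benjamini-Hochberg adjusted p, from the edgeR quasi-likelihood test on 28536 genes, was under 0.05 and its log2 fold change, Activator over Control at the same time point, was beyond 1. Before induction 0 of the 41 tested members were called by edgeR and 0 by DESeq2, 4 had an unadjusted p under 0.05, and 0.641% of all genes were called higher and 0.109% lower. At the end of induction 2 were higher (22.1% of all genes were) and 3 lower (12.2%). After 3 h 6 were higher (27.1%) and 2 lower (18.6%). Without replicate 2 0 were higher and 1 lower before induction (0.477% and 0.0584% of all genes), 4 and 4 at its end (24.3% and 11.4%), and 10 and 3 after 3 h (29.7% and 16.6%).

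From 6 h on, calls among the members went one way. Higher were 23 of 41 at 6 h (28.6% of all genes), then 29 at 12 h (31.3%), and finally 32 at 24 h (27.9%), and at each of these times 0 were lower, against 19.6%, 18.9% and 7.3% of all genes. DESeq2 also called 0 lower at all 3 times, and at an unadjusted p under 0.05 edgeR gave 2 lower at 6 h, 0 at 12 h and 0 at 24 h. The median log2 fold change of the members went from 0.29 before induction to 0.10, 0.66, 1.42, 2.09 and 2.02 at the 5 later points, while the median of all genes stayed between 0.01 and 0.16 over the 6 points. For 2 members the unbroken run of higher calls up to 24 h began at the end of induction (Ccl5, Ddx60), for 3 at 3 h (Irf7, Mx2, Gbp2), for 17 at 6 h, for 6 at 12 h and for 4 at 24 h.

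Much of this rested on replicate 2. Without it 38 members could be tested and 10 were higher and 3 lower at 6 h (31.5% and 18.9% of all genes), 20 higher and 2 lower at 12 h (33.3% and 19%), and 24 higher and 0 lower at 24 h (31.6% and 10.3%). All 24 were among the 32. Of the others Irf9, Gbp3, Gbp7, Trim30a and Rtp4 lost their call, and Oas1g, Iigp1 and Rsad2 fell under the filter on low counts. In 21 of the 24 the fold change was smaller without replicate 2. At 24 h replicates 1 and 3 were both above all 3 Control libraries for 29 members, and replicate 2 was for all 41. All 3 Activator libraries lay above all 3 Control libraries for 29 of 41 members at 24 h and 8 before induction, against 32.7% and 8.56% of all genes. The counts at 24 h include members that passed the filter on low counts only through Activator libraries. Those are named in the next paragraph and are no support for a direction here either. Nor do these counts take into account the cell death reported for the Activator line at the last time point.

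Of the 41, 14 passed the filter on low counts only through Activator libraries, so that they had to be higher there, and they are no support for a direction. These are Ccl5, Ifit3b, Oas1a, Oas1g, Oas2, Oas3, Oasl1, Mx1, Mx2, Iigp1, Psmb9, Rsad2, Ddx60 and Ifi44, and all 14 are among the 23 and the 29 counted at 6 and 12 h. The other 27 passed in at least 3 Control libraries. Among those, 9 were higher at 6 h, a share near that of all genes, 15 at 12 h and 19 at 24 h, with a median log2 fold change of 1.66 at the last point. Without replicate 2 the members higher among the 27 were 4, 10 and 14 over these 3 points, against 3, 2 and 0 lower.

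**Figure D2:**
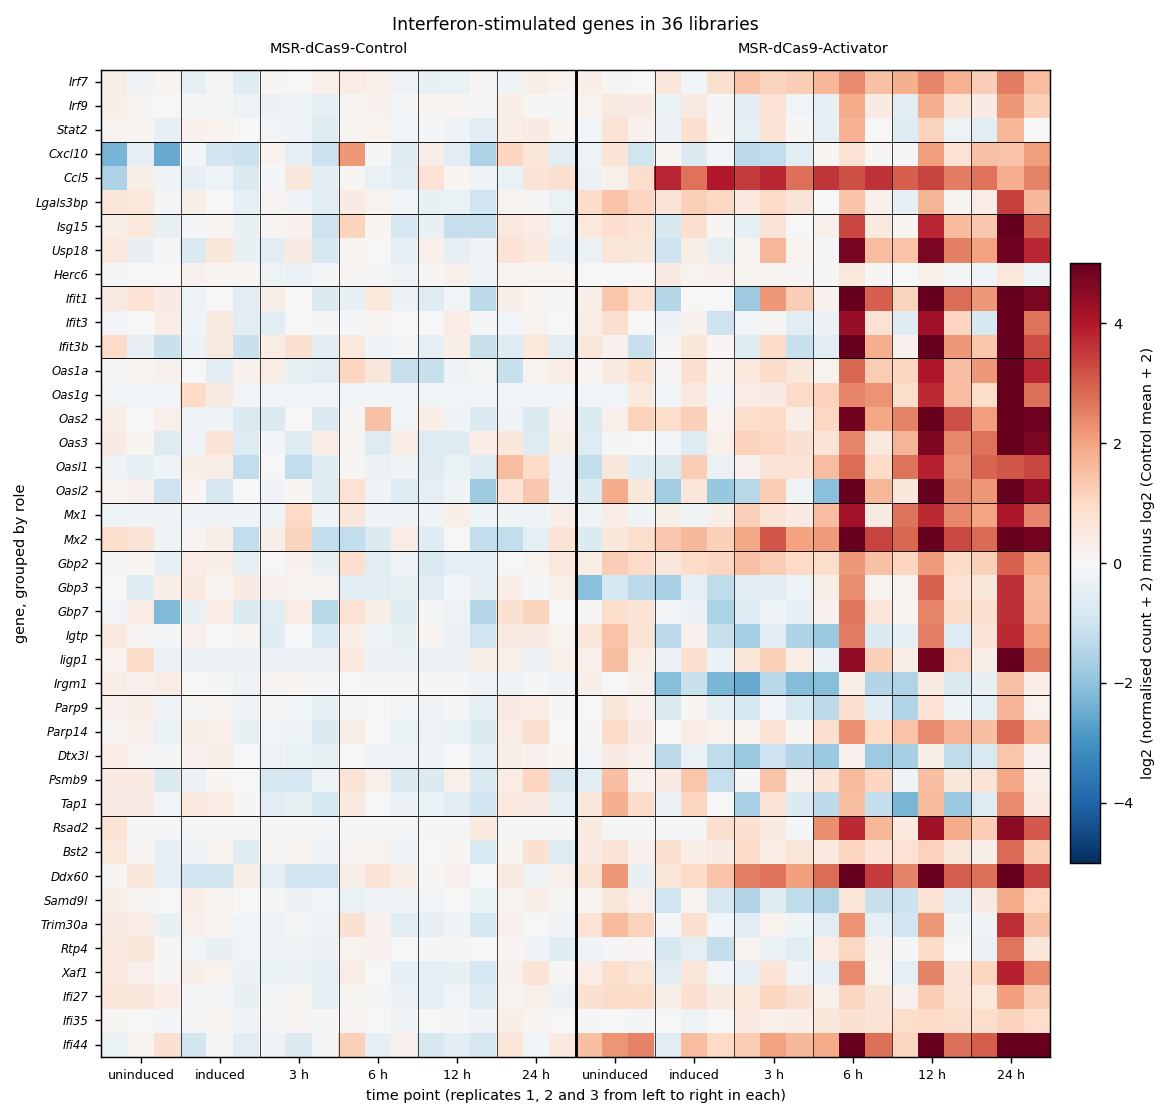
Log2 difference of each member (row, grouped by role) in each of the 36 libraries from the mean of all 18 Control libraries. Columns run by line, time point and replicate, and colours are limited at 5 in either direction. Control columns are pale. In the Activator line the colour deepens from 6 h on, most in replicate 2 of each time point.

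The transcription factors come first, since they carry the signal. Irf7, the factor that amplifies interferon production, lay between 55.3 and 112.8 in the 18 Control libraries (median 89.2). In the Activator line replicates 1, 2 and 3 had 105, 88.7 and 85.4 before induction, 131, 77.5 and 150 at its end, and 233, 187 and 203 after 3 h. By 6 h they had reached 276, 456 and 244, followed by 301, 478 and 294 in the 12 h samples, then by 207, 524 and 256 in those of 24 h. From 3 h every Activator library was above every Control library. The log2 fold change at 24 h was 1.801 ± 0.29 (SE, adjusted p = 3.73e-06, edgeR), and 1.55 without replicate 2. At the end of induction it was 0.84 (adjusted p = 0.0169), under the limit on the fold, and was called without replicate 2 (1.42) or without replicate 2 of either line at that point alone.

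Irf9 and Stat2, the interferon-specific parts of ISGF3, moved with replicate 2. At 24 h Irf9 had 478, 1639 and 825 in Activator replicates 1, 2 and 3 against 455, 370.2 and 340 in Control, so the groups did not overlap but replicate 1 was close to Control. Its log2 fold change was 1.18 ± 0.39 (adjusted p = 0.011, edgeR), and 0.81 without replicate 2, when it was not called. Nor was it called without replicate 2 of either line at 24 h alone, or without replicate 3 of all groups (1.13). Stat2 had 678, 3115 and 981 at 24 h against 1250.3, 1304 and 1098, so that 2 Activator libraries lay under and 1 above all Control libraries. Its log2 fold change was 0.17 (adjusted p = 0.703, edgeR), and −0.38 without replicate 2. At 6 h Stat2 had 729, 3298 and 1001 in the Activator line against 1058, 1129 and 894 in Control, with replicate 2 above, replicate 1 under and replicate 3 inside the Control range.

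Among secreted proteins, Ccl5, a chemokine that draws T cells and monocytes, behaved differently from the rest. It did not exceed 8.18 in any Control library. In the Activator line it went from 2.65, 4.93 and 8.76 before induction to 80.5, 36.5 and 92.4 at its end, and was 63.4, 77.5 and 37.6 at 3 h. At 6 h it was 66.7, 51.0 and 70.2, followed in the 12 h samples by 43.9, 59.2 and 31.9, then 35.8, 18.8 and 30.6 at 24 h. All Activator libraries from the end of induction on were above all Control libraries, and replicate 2 was the lowest at the first and at the last of those points. Its log2 fold change was 4.82 ± 0.56 at the end of induction (adjusted p = 2.88e-08, edgeR) and 2.26 ± 0.52 at 24 h (adjusted p = 0.000401).

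Cxcl10, a chemokine induced by interferons of type I and II, gave a weaker picture. At 24 h it had 45.0, 44.1 and 71.7 in the Activator line and 34.2, 24.1 and 9.99 in Control, while Control replicate 1 had reached 75.7 at 6 h. The log2 fold change of 1.37 ± 0.59 (adjusted p = 0.0436, edgeR) lost its call without Control replicate 2 or 3 or without Activator replicate 3 at 24 h. Lgals3bp, a secreted glycoprotein, had 367, 3082 and 874 against 227 to 327, and a log2 fold change of 2.12.

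ISG15 is a ubiquitin-like protein that is joined to other proteins, and Usp18 removes it and damps receptor signalling. Isg15 lay between 15.95 and 85.7 in the Control libraries (median 38.5). In Activator replicates 1, 2 and 3 it was 56.5, 70.0 and 63.5 before induction, 21.4, 67.5 and 39.7 at its end, and 27.5, 60.6 and 37.6 at 3 h. The 6 h samples had 46.7, 410 and 54.8, the 12 h samples 40.8, 560.2 and 119, the 24 h samples 101, 1301 and 335. Thus replicate 2 left the Control range at 6 h, replicate 3 at 12 h and replicate 1 only at 24 h. At 24 h the log2 fold change was 3.25 ± 0.71 (adjusted p = 0.000376, edgeR), and 2.41 without replicate 2 (adjusted p = 0.00961). Usp18 had a log2 fold change of 3.46 (3.04 without replicate 2), whereas Herc6, the mouse ligase for ISG15, had −0.08.

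All 3 IFIT genes, whose products bind foreign RNA ends, were called higher at 24 h with and without replicate 2 (27.9% and 31.6% of all genes). Of these Ifit3b passed the filter on low counts only through Activator libraries and is no support for a direction. Ifit1 did not exceed 14.2 in Control libraries. In Activator replicates 1, 2 and 3 it was 10.6, 23.6 and 14.2 before induction, 1.64, 7.75 and 7.78 at its end, then 0.834, 42.8 and 21.03 in the 3 h samples. The 6 h samples had 9.53, 1096 and 76.2, those of 12 h 19.4, 669 and 66.7, those of 24 h 43.003, 1181 and 256. At 6 h replicate 1 was still inside the Control range, replicate 2 was far above it, and replicate 3 lay between them. The log2 fold change at 24 h was 4.93 ± 0.97 (adjusted p = 0.000128, edgeR), and 3.84 without replicate 2 (adjusted p = 0.000884). Ifit3 had 3.18 and Ifit3b 5.06 on the same scale, with the reads of the pair partly shared as given above.

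**Figure D3:**
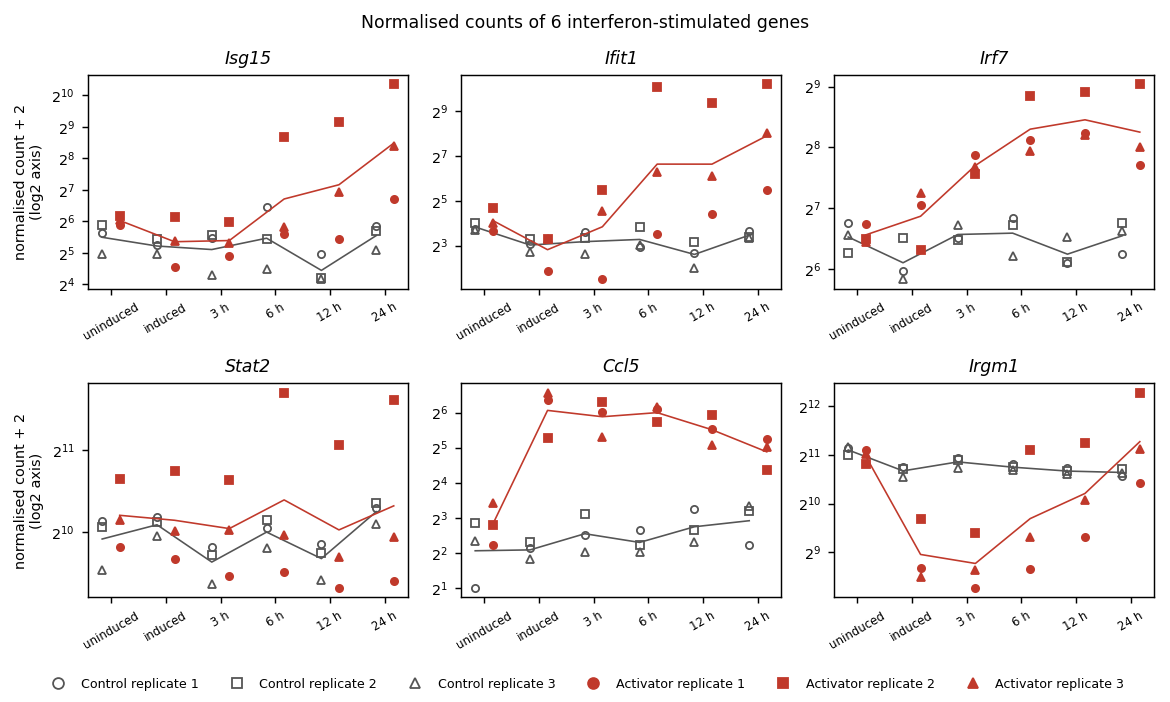
Normalised counts plus 2 (log2 axis) of Isg15, Ifit1, Irf7, Stat2, Ccl5 and Irgm1 by time point. Each mark is a library, open for Control and filled for Activator, the shape gives the replicate, and lines join the means on the log scale. Ccl5 is up at the end of induction, Irf7 from 3 h, and Isg15 and Ifit1 later and most in replicate 2, while Irgm1 first goes down.

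The OAS proteins make the messenger 2-5A that activates RNase L. All 6 members of this family were higher at 24 h (27.9% of all genes were), and the 5 that could be tested without replicate 2 were then too (31.6%). Of the family only Oasl2 passed the filter on low counts in Control libraries. The other members passed only through Activator libraries and are no support for a direction. Oas2 had raw counts of 12, 674 and 90 in Activator replicates 1, 2 and 3 at 24 h against 1, 0 and 2 in Control. On the log2 scale the difference was 6.99 ± 0.88 (adjusted p = 1.39e-07, edgeR), and 5.14 without replicate 2, and the ratio of the group sums was 255 with a 95% counting interval of 86.8 to 1240. Oas1g had 2, 77 and 12 counts at 24 h against 0 in each Control library. With a floor of 3 counts over the Control group it was at least 29.9-fold higher. Oas1a (5.05), Oas3 (5.47), Oasl1 (2.54) and Oasl2 (4.40) are given by their log2 fold changes, and Oasl2 had 90.1, 2952 and 427 normalised counts against 14.5 to 49.6.

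The Mx proteins are dynamin-like GTPases that trap viral components. Mx2 did not exceed 7.96 in Control. In the Activator line it was 0.883, 4.93 and 6.57 before induction, 9.86, 12.2 and 8.64 at its end, and 15.8, 39.2 and 16.6 at 3 h. It reached 18.1, 506 and 46.4 by 6 h, stood at 31.7, 372 and 43.5 by 12 h, then at 30.7, 380.0 and 126 by 24 h. From the end of induction on each Activator library was above all 18 Control libraries. At 24 h its log2 fold change was 5.77 ± 0.90 (adjusted p = 5.48e-06, edgeR), and 4.85 without replicate 2. Mx1 had 56 counts in the 3 Activator libraries at 24 h and 1 in Control, a ratio of 55.1 with a 95% counting interval of 9.50 to 2220.

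The GTPases of the GBP and IRG families, which attack the vacuoles of intracellular parasites and respond strongly to interferon gamma, held Irgm1 and Gbp3, which were called lower at the end of induction. Irgm1 lay between 1495 and 2284 in Control libraries. In Activator replicates 1, 2 and 3 it was 2183, 1802 and 2064 before induction, 409, 815 and 359 at its end, and 306, 674 and 395 at 3 h. It then came back, to 398, 2210.5 and 635 by 6 h, to 631, 2438 and 1069 by 12 h, finally to 1366, 4954 and 2237 by 24 h. At the end of induction and at 3 h all 3 Activator libraries were under all Control libraries, and at 24 h they lay on both sides. The log2 fold change was −1.73 ± 0.42 at the end of induction (adjusted p = 0.00112, edgeR), −2.11 at 3 h and 0.70 at 24 h (adjusted p = 0.131). Without Activator replicate 1 of 24 h the last value was 1.09 and called.

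Gbp3 was already low in the uninduced Activator line, with 3.53, 10.8 and 7.66 against 22.3, 12.95 and 28.1, a log2 fold change of −1.73 (adjusted p = 0.358, edgeR) that was −2.18 without replicate 2 (adjusted p = 0.0103). At the end of induction it was 5.75, 15.5 and 7.78 against 31.5, 24.3 and 29.2 and was called lower, at −1.69 ± 0.67 (adjusted p = 0.034), a call that was lost without Control replicate 1 or 3 or any of the Activator replicates of that time point. At 24 h it was 32.8, 296 and 68.5 against 28.1, 19.9 and 26.3, at 2.02 ± 0.55 (adjusted p = 0.0023), and was not called without replicate 2. Of the 6 family members tested, 5 were higher at 24 h (27.9% of all genes were). Without replicate 2, where Iigp1 could not be tested, 2 were (31.6%), namely Gbp2 (1.43) and Igtp (1.38). Iigp1 passed the filter on low counts only through Activator libraries and is no support for a direction.

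Of the PARP and DTX proteins, which attach and read ADP-ribose, Dtx3l fell at the end of induction. It had 139, 277 and 143 in Activator replicates 1, 2 and 3 against 400, 425 and 346 in Control, a log2 fold change of −1.15 ± 0.39 (adjusted p = 0.0149, edgeR). This call was lost without Control replicate 1 or without Activator replicate 1 or 3 of that time point. At 3 h it was 95.03, 168 and 125 and again called lower, and at 24 h it was 206, 924 and 402 against 376 to 441, with no call (0.15, adjusted p = 0.734). Its partner Parp9 was not called at 24 h either (0.31). Parp14 was higher at 24 h with a log2 fold change of 1.66 and kept its call without replicate 2 (1.55).

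No tested gene of antigen processing was called at 24 h. Tap1, a subunit of the peptide transporter, had 38.9, 333 and 87.5 at 24 h against 45.4 to 91.2, and the immunoproteasome subunit Psmb9 had 11.3, 30.02 and 8.43 against 2.73 to 15.6. Their log2 fold changes were 0.72 and 0.87, and Psmb9 had been called higher at 3, 6 and 12 h. Psmb8, the other immunoproteasome subunit, was too low to test, with 2, 5 and 4 raw counts in the Activator line at 24 h and 1, 0 and 0 in Control, a ratio of 10.8 with a 95% counting interval of 1.57 to 466.

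Other antiviral effectors were called higher at 24 h in 8 of 10 tested members (27.9% of all genes were). Without replicate 2, where Rsad2 could not be tested, 5 were (31.6%). Rsad2, Ddx60 and Ifi44 passed the filter on low counts only through Activator libraries and are no support for a direction. Ddx60 encodes a helicase that assists RNA sensing. In Control it did not exceed 4.42. In Activator replicates 1, 2 and 3 it was 4.41, 15.8 and 1.09 before induction, 4.11, 5.53 and 8.64 at its end, then 20.8, 24.1 and 14.4 by 3 h, finally 24.6, 279 and 40.1 by 24 h. The call against Control at the end of induction, at 3.13 ± 1.13 (adjusted p = 0.0197, edgeR), was lost without Control replicate 1 or 2 or without Activator replicate 3 of that time point. That at 24 h, at 4.78 ± 0.64 (adjusted p = 2.97e-07), was 3.42 without replicate 2 and kept.

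Rsad2, which encodes viperin, had 3, 48 and 15 raw counts at 24 h against 0 in each Control library and was at least 21.7-fold higher by the floor of 3 counts over the group. Its neighbour Cmpk2 was too low to test, with 0, 11 and 2 counts against 2, 0 and 0, a ratio of 6.40 with a 95% counting interval of 1.45 to 58.4. Xaf1 (2.31), Ifi44 (5.38), Bst2 (1.63) and Ifi27 (1.29) rose and kept their calls without replicate 2, while Trim30a (1.99) and Rtp4 (1.63) did not keep theirs. Bst2, or tetherin, holds budding viruses at the cell surface.

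Ifi35 differed little in size but also varied little between replicates. At 24 h it had 732, 857 and 726 in the Activator line against 481, 420 and 399 in Control, with no overlap. Its log2 fold change of 0.83 (adjusted p = 8.11e-08, edgeR) was under the limit on the fold. Samd9l (0.95, adjusted p = 0.0153) was likewise under that limit. The other 7 members tested and not called at 24 h were Stat2, Herc6, Irgm1, Parp9, Dtx3l, Psmb9 and Tap1.

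**Figure D4:**
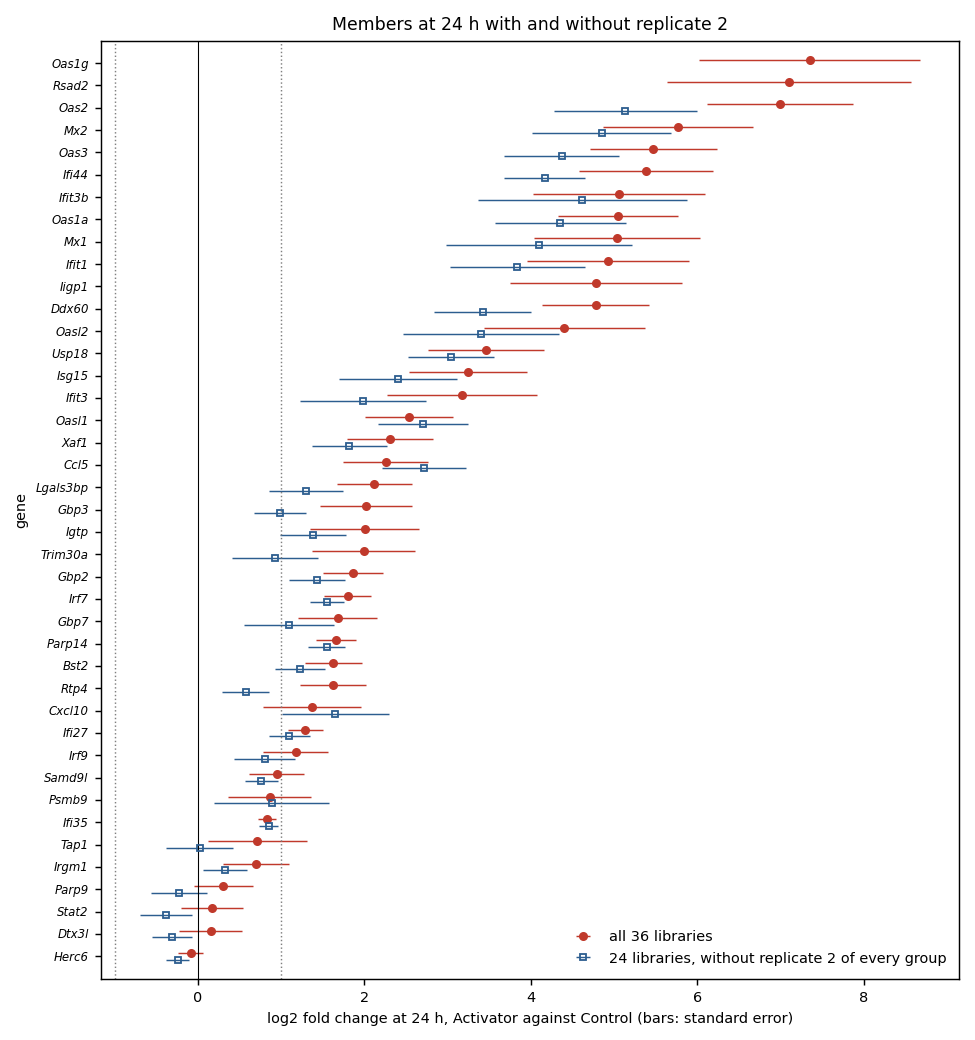
Log2 fold change at 24 h, Activator over Control, for each tested member in order of its value, with all libraries and without replicate 2 of every group. Bars are standard errors from the edgeR fit, and the dotted lines mark the limit of 1 in either direction. Fitted values of members at 0 in every Control library of 24 h (Oas1g, Rsad2) depend on the prior count. Of the 24 members called in both, 21 had a smaller value without replicate 2.

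The change from the uninduced state was then compared between the lines, so that a difference present at the start is taken out. It was larger in the Activator line for 1 member at the end of induction (9.14% of all genes) and smaller for 1 (10.5%). Later it was larger for 3, 8, 13 and 16 members at 3, 6, 12 and 24 h, against 12.8%, 13.7%, 16.4% and 11.2% of all genes, and smaller for 1, 1, 0 and 0 (edgeR, also 0 and 0 at an unadjusted p under 0.05 and with DESeq2 at the last 2 points), against 17.5%, 18.4%, 17.5% and 5.61%. Without replicate 2 11 were larger and 0 smaller at 24 h, against 13.8% and 9.2% of all genes, and 10 of the 11 were among the 16. At 6 h 4 were then larger and 4 smaller (16.3% and 18.1%), so the calls no longer went one way, and at 12 h 7 and 1 (17% and 17.8%). They were 1 and 3 at the end of induction (11.4% and 10.3%), then 3 and 3 after 3 h (14.9% and 15.5%). Members that passed the filter on low counts only through Activator libraries are in these counts and are no support for a direction. Among the other 27 the change was larger for 0, 1, 4, 7 and 9 from the end of induction on, and smaller for 1, 1, 1, 0 and 0. Without replicate 2 it was larger for 1, 2, 2, 5 and 5 of the 27 and smaller for 3, 3, 4, 1 and 0. The 16 became 2 without replicate 3 of every group and 6 without the replicate term in the model, where the 9 of 6 h became 4. The count at 24 h became 5 without the uninduced Control replicate 1, 9 without Control replicate 2 of 24 h, and 10 without Activator replicate 2 of either the uninduced or the 24 h group.

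Within the Activator line 29 of 41 members were higher at 24 h than uninduced and 0 lower (edgeR, also 0 at an unadjusted p under 0.05 and with DESeq2), against 27.1% and 6.54% of all genes, and 22 were higher and 0 lower without replicate 2, against 31% and 9.74%. Of the 29, 13 had passed the filter on low counts only through Activator libraries and are no support for a direction. Among the other 27 members 16 were higher, and 12 without replicate 2. At the end of induction 1 was higher and 3 lower, against 20.5% and 13.9%. The 1 higher had also passed the filter only through Activator libraries. Within the Control line 0 were called at either point by edgeR or DESeq2, where 0.112% and 0.21% of all genes were, and 1 and 4 members had an unadjusted p under 0.05. These comparisons share libraries with those between the lines and are not independent of them.

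Set beside the promoters, members with and without the ISRE motif can be compared as a description. Of 18 tested members with a match, 6 passed the filter on low counts only through Activator libraries, as did 3 of 13 without a match, and these are left out here. Of the remaining 12 with a match 10 were higher at 24 h, with a median log2 fold change of 1.93, and 7 were without replicate 2. Of the remaining 10 with a promoter in the table and no match 5 were, with a median of 1.06, and 4 without replicate 2. No test was run on this difference.

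The rest of the pathway was followed through 46 other genes of interferon signalling, of which 37 could be tested. Called higher between the lines were 1 before induction, 4 at its end, then 5, 4, 7 and 8 over the 4 later points. Called lower at the same points were 0, 4, 8, 9, 9 and 1. At 24 h 8 of 37 is a smaller share than the 27.9% of all genes, and from 3 to 12 h the 8 or 9 lower of 37 stand beside 18.6%, 19.6% and 18.9% of all genes. Without replicate 2 the higher counts were 1, 5, 5, 5, 6 and 6 and the lower ones 0, 4, 8, 11, 11 and 4. By group at 24 h these were 1 of 2 tested ligands, 0 of 6 receptors, 1 of 9 signal transducers, 5 higher and 1 lower of 11 sensors and their adaptors, and 1 of 9 negative regulators. Irf8, Ifna2, Ifnk, Cgas and Zbp1 passed the filter on low counts only through Activator libraries and are no support for a direction. Both tested ligands, Ifna2 and Ifnk, are among them. Irf8, Ifna2, Cgas and Zbp1 are among the 8 counted as higher at 24 h.

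Most interferon genes themselves were near 0. Ifnb1, the fibroblast interferon, was too low to test, with raw counts of 2, 3 and 5 in Activator replicates 1, 2 and 3 at the end of induction, 11, 8 and 5 by 12 h, then 8, 0 and 0 in the last samples, against 0 to 3 in every Control library. Ifna2 had 8, 0 and 3 counts at the end of induction, 47, 26 and 39 by 12 h, then 104, 17 and 50 in the last samples, against 0 in all 18 Control libraries. At 24 h it was at least 56.1-fold higher by the floor of 3 counts over the group. In Ifna2 replicate 2 was the lowest Activator library at 24 h, the reverse of its place among the members.

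The receptor chain Ifnar1 had 1059.7, 2614 and 1368 at 24 h against 2764 to 3034 in Control, a log2 fold change of −0.85 (adjusted p = 0.00071, edgeR) that stayed within the limit on the fold and was −1.10 and called without replicate 2. Irf1, a factor of the interferon gamma response, was lower at the end of induction, at −1.65, and at 6 h, at −1.73. Irf8, a factor known from myeloid cells, had 155, 41 and 89 raw counts at 24 h and 0 in all 18 Control libraries, and was at least 93.5-fold higher. It was present from the end of induction, at 25, 6 and 37 counts.

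Of the sensors, Cgas, which detects cytoplasmic DNA, had 178, 41.3 and 135 at 24 h against 4.39, 1.42 and 4.54 in Control, a log2 fold change of 4.94 ± 0.40 (adjusted p = 3.03e-11, edgeR). Zbp1, which binds Z-form nucleic acid, had 90.1, 324 and 108 against 5.27, 8.51 and 5.45, at 4.60 ± 0.48. The groups did not overlap in either gene, and replicate 2 was lowest for Cgas and highest for Zbp1. Both genes passed the filter on low counts only through Activator libraries, which fixes their direction. Their values are therefore a description and no support for a direction. Ifih1, which encodes the double-stranded RNA sensor MDA5, was at 2.61, and it was already higher before induction, at 2.85 (adjusted p = 0.0385). Rigi was at 1.12, Dhx58 at 1.02 and the feedback inhibitor Socs1 at 1.09, and of these only Socs1 kept its call without replicate 2. The kinase gene Ikbke was lower, at −1.002.

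**Figure D5:**
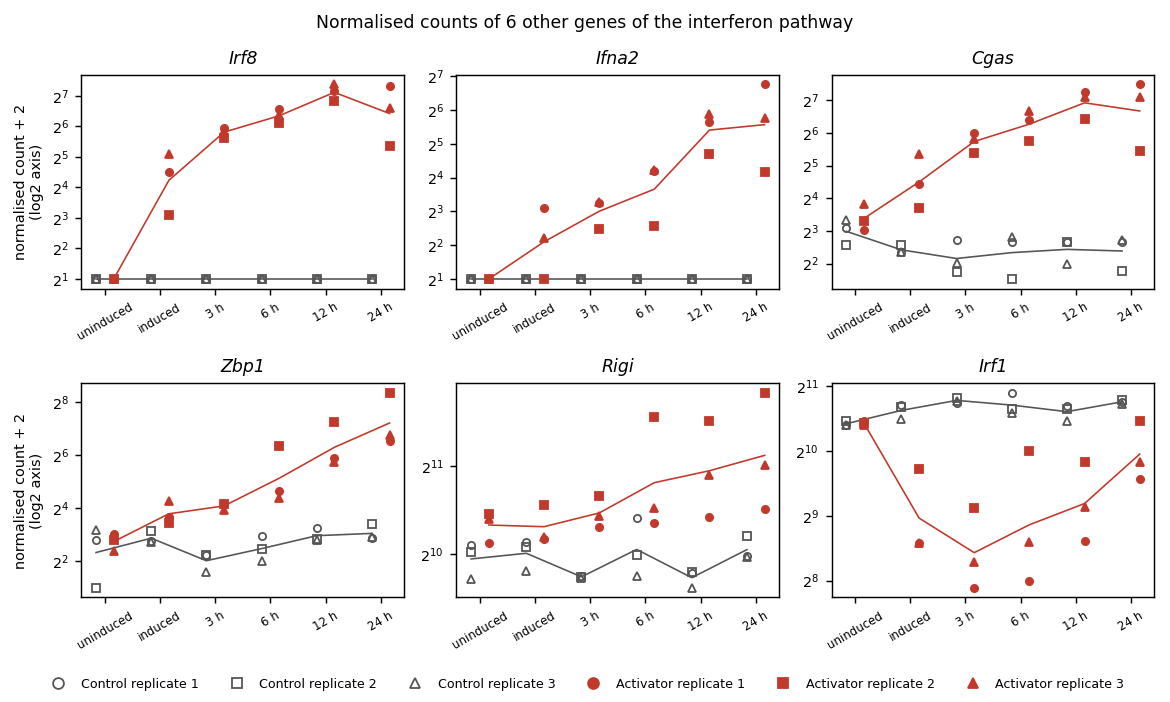
Normalised counts plus 2 (log2 axis) of Irf8, Ifna2, Cgas, Zbp1, Rigi and Irf1 by time point, with marks as in the plot of member time courses. Irf8 and Ifna2 were at 0 in all 18 Control libraries, and Irf8, Ifna2 and Cgas were lowest in Activator replicate 2 at 24 h, whereas Zbp1 and Rigi were highest in it.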

How the data were processed

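Total RNA of 36 libraries was sequenced as stranded, ribosome-depleted, paired-end reads. According to the study's methods the authors trimmed adapters, used STAR for alignment to GRCm38 with the settings that TEtranscripts recommends, and obtained gene and repeat counts from TEtranscripts. They deposited 1 table of raw counts per gene and repeat family. The strand and multi-mapping settings of the counting step and the annotation release are not given in the sources used here. Reads shared between copies may be split.

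Gene counts were analysed in R 4.3.3 with edgeR 4.0.16 (TMM, filterByExpr, quasi-likelihood test) in 1 model with 12 group terms and a replicate term, as 28536 tested genes, adjusted by the Benjamini-Hochberg method. Normalised counts are per effective library size, and a prior count of 2 was used on the log2 scale. A row without a gene name held at most 0.00452% of counts and was left out. Of the deposited IDs, 54495 matched GENCODE M21, used for names and places. Promoters came from RefSeq (GRCm38.p6). In simulated counts for the 24 h comparison with 22323 genes, 199 of 200 genes changed by 4-fold were called, with 4 false calls. The changed genes were all well expressed, the spread was set the same for all genes, and no replicate stood apart. The simulation therefore cannot tell how well members with low counts or with an outlying replicate are called.

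The members, lists and tests were chosen with earlier results of these data known. Every member is described by role. Values by library are given for Isg15, Ifit1, Irf7, Stat2, Irf9 and Cxcl10 and, by size of change among called members, for up to 4 per direction at 24 h and 3 at the end of induction. Other pathway genes are named when called at 24 h, up to 8, with Ifnb1, Ifnar1, Ifih1 and Rigi always. Irf1, Ikbke and the examples within groups were named after their values were seen. One further pathway gene that this rule names is not reported here. Alternatives were DESeq2 1.42.0 (its size factors and its Wald test), no TMM, scaling to 13 mitochondrial mRNAs, other filters, no replicate term, separate fits and leaving out libraries. The p-values measure the spread between replicates described as biological. Intervals and bounds cover counting error only.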

Additional observations from a re-analysis of the deposited data

Results flagged for a closer look

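These results were set apart because the change from the uninduced state differed between the Activator and the Control line in a test of that difference (edgeR, adjusted over all genes). Counting both directions, this held for 2 members when induction ended and, in the order of the later time points (3, 6, 12 and 24 h), for 4, 9, 13 and 16. These counts include members that passed the filter on low counts only through Activator libraries, and the counts without them are given above. At 24 h the difference between the lines in the log2 change from uninduced was 1.79 ± 0.41 (SE) for Irf7 (adjusted p = 0.00118), 2.72 ± 1.01 for Isg15 (adjusted p = 0.0421) and 4.79 ± 1.57 for Ifit1 (adjusted p = 0.022). It was 6.99 ± 2.01 for Oas2 (adjusted p = 0.00885), 6.30 ± 1.68 for Mx2 (adjusted p = 0.00546) and 3.75 ± 0.90 for Gbp3 (adjusted p = 0.00221). For Ddx60 it was 3.38 ± 1.30 (adjusted p = 0.0453) and for Rsad2 8.05 ± 3.08 (adjusted p = 0.0489). Oas2, Mx2, Ddx60 and Rsad2 passed the filter on low counts only through Activator libraries, which fixes their direction, so their values are a description and support nothing. Rsad2 was at 0 in the 3 Control libraries of 24 h, so its fitted value depends on the prior count. Without replicate 2 the differences were 1.62 for Irf7, 3.79 for Ifit1, 5.00 for Oas2, 5.33 for Mx2 and 3.17 for Gbp3, all still called, while Isg15 (1.81, adjusted p = 0.198) and Ddx60 (2.67, adjusted p = 0.0975) were not, and Rsad2 could not be tested. Leaving out replicate 3 of every group instead took the 16 members of 24 h to 2, so most of the genes named here were then not called.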

How the results depend on the processing

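The counts below are of called members, higher and lower together. With members under a mean normalised count of 100 left out, 2, 3, 4, 9 and 11 remained called between the lines from the end of induction to 24 h, against 5, 8, 23, 29 and 32, the change from uninduced differed for 1, 2, 2, 5 and 6 against 2, 4, 9, 13 and 16, and within the Activator line 2 and 8 were called against 4 and 29, since fewer members enter. Without Activator replicate 2 at all time points, an alternative added after seeing the data, 2, 8, 10, 15, 23 and 26 were called between the lines from uninduced to 24 h, the change differed for 6, 8 and 12, 13 and 15, and 7 were called within the Activator line at the end of induction. With only the libraries of the groups compared, the counts were 1 uninduced, 10 at 6 h, 4, 9 and 5 for the change at the end of induction, 3 h and 6 h, 7 within the Activator line at the end of induction and 2 within Control at 24 h (0 otherwise). Adjusted p alone gave 13 at 3 h. Without the replicate block 2 were called at the end of induction, the change differed for 1, 4 and 6 at the end of induction, 6 h and 24 h, and 2 were called within the Activator line at the end of induction. Same-numbered libraries of the lines correlated at −0.0067 to 0.222 in their deviations, 8 of 18 under 0.1, so the check does not show that the numbers pair samples. The replicate term was kept because the study's own model had it, and the calls that it adds rest on it. No filter gave 1 and 2 for the change at the end of induction and 3 h, and DESeq2 gave 21 at 12 h. Scaling to mitochondrial mRNAs gave 4 and 9 for the change at 6 h and 24 h and 10 within the Activator line at the end of induction, and moved the median of all genes to −0.25, −0.44, −0.58, −0.49 and −0.18 from the end of induction to 24 h. The split of members between higher and lower became, over the same 5 points, 2 and 4, 2 and 4, 14 and 2, 22 and 1, then 30 and 0. It turned the direction of Isg15 (−0.16), Stat2 (−0.35) and Irf9 (−0.26) at the end of induction and of Stat2 (−0.022) and Dtx3l (−0.041) at 24 h. Stat2 at the end of induction also turned without TMM (−0.044).

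Leaving out single libraries or 1 replicate number gave 0 to 1, 1 to 8, 6 to 13, 13 to 28, 22 to 34 and 24 to 35 members called between the lines from uninduced to 24 h, and 0 to 4, 0 to 6, 3 to 10, 7 to 18 and 2 to 20 for the change. It gave 2 to 5 and 22 to 34 within the Activator line at the end of induction and 24 h, and 0 within Control. At the end of induction the log2 fold change then ran from −0.17 to 0.66 for Isg15, −1.40 to 0.77 for Ifit1, −0.20 to 0.32 for Stat2, −0.084 to 0.34 for Irf9, −3.17 to 0.026 for Oas1g and −0.13 to 3.95 for Rsad2, and at 24 h from −0.38 to 0.61 for Stat2 and −0.31 to 0.66 for Dtx3l. Without Activator replicate 2 at all time points the values were −0.16 for Isg15, −0.17 for Stat2 and −0.075 for Irf9 at the end of induction, and −0.37 for Stat2 and −0.28 for Dtx3l at 24 h. None of these was called, and the causes were not tested. Depth limits Psmb8 and Cmpk2, which could not be tested.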
